A study of Homo sapiens with 48 samples.

Results

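Hepcidin and the genes that move, store and sense iron were followed in 2 human cell lines after transfection of an siRNA named INTG. The set comprised 10 genes (HAMP, TF, TFRC, TFR2, FTL, FTH1, SLC40A1, SLC11A2, HFE and IREB2), chosen by gene symbol in the annotation of the array. Of these, 8 genes carried a named probe, with 12 probes among the 28092 probes that name a single gene. Each probe was kept apart. FTH1 and IREB2 were not analysed here. Huh7 cells come from a human hepatoma, and THP1 cells from a monocytic leukaemia. In each line the groups were cells given INTG, which targets the transcript between C5 and TRAF1 on chromosome 9, cells given the negative control siRNA NC2 and cells given the negative control siRNA NC1. All groups received 50 pmol siRNA by lipid transfection on 300000 cells per well and were collected after 2 days, so no group was left untransfected. Each siRNA was given in 4 experiments per line, each from its own culture passage, with 2 wells per experiment, which makes 48 arrays in all and 8 per group. A single siRNA stands for the targeting of the transcript, and the level of the transcript itself is not analysed here.

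Iron in blood plasma is carried by transferrin (TF) and enters cells with the transferrin receptor (TFRC), after which SLC11A2, also called DMT1, passes it out of the endosome. Ferritin, built from FTL and FTH1 chains, stores it, and ferroportin (SLC40A1) is the exporter. Hepcidin, the hormone encoded by HAMP and made mainly by hepatocytes, binds ferroportin and has it degraded. HFE and TFR2 take part in the sensing of iron by hepatocytes, upstream of hepcidin. BMP ligands acting through SMAD proteins and interleukin 6 acting through STAT3 are the best known inducers of HAMP transcription. The messages of FTL, TFRC, ferroportin and some SLC11A2 transcripts carry iron-responsive elements, which bind iron regulatory proteins.

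The HAMP promoter is shown because HAMP is the member with the largest measured difference in Huh7, and the FTL element because it is the textbook example of translational control by iron. Promoter windows came from RefSeq on GRCh38.p14, where 8 of the 10 members had a window. In the 250 bases before the HAMP start, at chr19:35282278-35282527 on the forward strand, the capitals mark the letters GGCGCC, the core of the BMP-responsive element, from base -105 to -100, and a match to TTCNNNGAA, the STAT element, from base -93 to -85. Both strands of all 35116 windows were searched. GGCGCC was found in 19.2% of the windows and TTCNNNGAA in 7.66%, and the matches do not overlap. In the FTL element, at chr19:48965339-48965358 on the forward strand, bases 31 to 50 of the transcript, the capitals mark the loop letters CAGTGN. Read in the sense of the transcript, these letters occur in 32.1% of windows. A window holds 250 bases before the start and 50 from it, so most of it lies before the start. The last sequence is the labelled target of INTG, with no capitals.
HAMP promoter: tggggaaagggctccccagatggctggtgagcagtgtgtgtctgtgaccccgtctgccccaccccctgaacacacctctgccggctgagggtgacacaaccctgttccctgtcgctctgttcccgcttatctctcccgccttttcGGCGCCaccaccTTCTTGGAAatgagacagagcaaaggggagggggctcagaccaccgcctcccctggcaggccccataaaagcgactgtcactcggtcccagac
FTL iron-responsive element loop: tgcttcaaCAGTGTttggac
INTG siRNA target: aactacgtgaagaggcctctg

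Mean bead signal per array lay between 240.6 and 396.8 in Huh7 and between 122.2 and 478.2 in THP1. All 9 hepatocyte-lineage markers looked at, among them ALB and TTR, were detected on all 24 Huh7 arrays, and none of them on all 24 THP1 arrays, where 6 were at 0. Of 9 myeloid markers, 6 (SPI1, PTPRC, CSF1R, ITGAM, MPO and FCER1G) were on 0 Huh7 arrays, while LYZ, CD14 and CD68 were on all 24. In THP1, 4 of the 9 were on all 24 arrays. The others were PTPRC on 12, CD14 on 16, ITGAM on 18, MPO on 21 and LYZ on 22. The 4 erythroid markers were on 0 arrays of either line. INTG arrays were as bright as the controls in experiment 1 of Huh7 (ratio of mean signals 1.02) and dimmer in experiments 2 to 4 (0.798, 0.738 and 0.819). THP1 arrays had ratios of 0.983, 0.986 and 1.06 in the first 3 experiments. Experiment 4 of THP1 had a ratio of 0.462, and its INTG arrays detected 8685.5 probes on average and the control arrays 11507. Within every experiment the arrays stood on the slide in the order NC1, NC2, INTG, so that an effect of this order and one of the siRNA cannot be told apart. In samples of this kind, less of a transcript per cell and fewer cells that make it cannot be told apart.

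HAMP (ILMN_1729188, NM_021175; chromosome 19, 35282528 to 35285143 on GRCh38.p14) was lower in Huh7 under INTG than under either control siRNA. On the normalized log2 scale, in which 1 unit is a factor of 2, the experiment means under INTG were 9.09, 7.91, 8.48 and 9.79 in experiments 1 to 4. Under NC2 they were 10.00, 8.81, 9.48 and 10.54. The NC1 means were 9.37, 8.45, 9.24 and 10.05. INTG lay below both controls in 4 of 4 experiments, yet the ranges of the groups overlapped, because HAMP differed between experiments by 1.74 over their means. That range runs from experiment 2 to experiment 4, which differ in both culture passage and slide. Duplicate wells were 0.17 apart at the median. Within experiments, INTG minus the mean of the controls was between -0.88 and -0.51 (SD 0.16, n = 4). The fitted difference was -0.68 (95% interval -0.85 to -0.50, limma with Benjamini-Hochberg adjusted p = 0.000176), a ratio of 0.626. In experiment 1, where the arrays were equally bright, the difference was -0.59. A brightness term in the fit left -0.60 (limma adjusted p = 0.0204), and the part of brightness in the result was not tested further.

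The passage as a block carries this call. Without it the same difference had a limma adjusted p of 0.611, and with slide in its place the adjusted p was 0.266. Leaving out 1 experiment at a time kept HAMP past the threshold, with differences of -0.73 to -0.61.

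**Figure D1:**
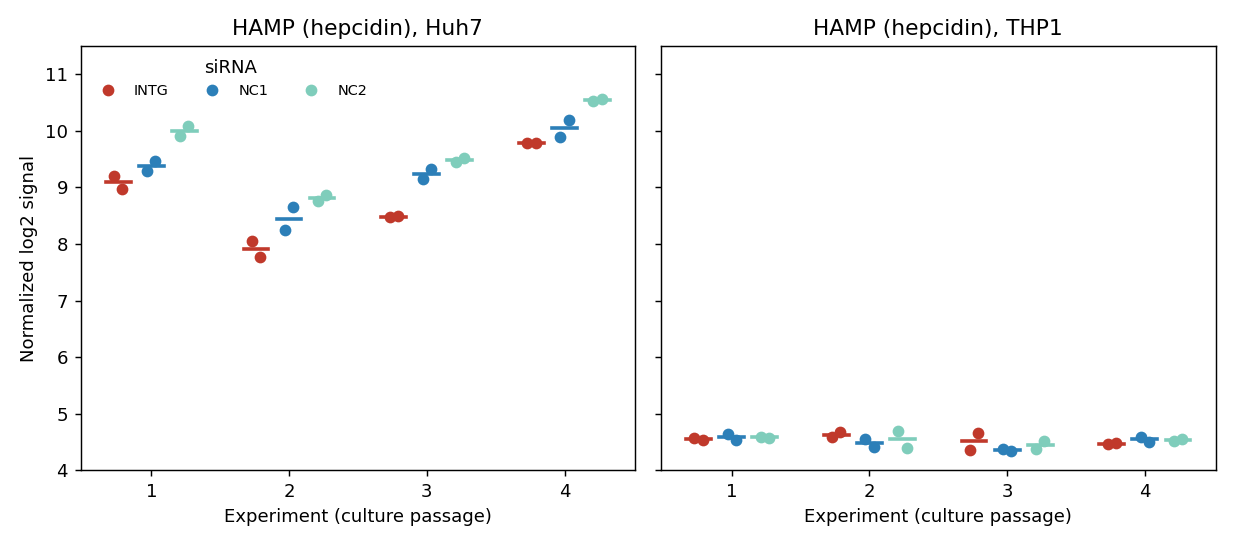
HAMP signal (normalized log2, y axis) in each well by experiment (x axis), Huh7 left and THP1 right. Points are wells, bars are means of 2 wells, and within an experiment INTG stands left of NC1 and NC2. INTG is the lowest siRNA in all 4 Huh7 experiments, and all THP1 wells lie near 4.5.

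The controls were not equal for HAMP. NC2 exceeded NC1 in 4 of 4 Huh7 experiments, by 0.43 (SE 0.09), which did not pass after adjustment over all probes (limma adjusted p = 0.076, unadjusted 0.000542). Between these controls 0.476% of all tested probes passed. The NC2 minus NC1 difference of HAMP was called in 4 of 16 alternative settings. INTG minus NC2 was -0.89 (limma adjusted p = 0.000139) and INTG minus NC1 was -0.46 (limma adjusted p = 0.00597), so that the size of the HAMP difference depends on the control taken. The smaller difference, against NC1, did not pass with a brightness term (-0.36, limma adjusted p = 0.31) or on a single slide (0.0824 for discovery and 0.117 for validation). In THP1, HAMP was detected on 0 of 24 arrays and was not tested.

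Of the 9 member probes tested in Huh7, 2 passed against the mean of the controls, HAMP lower and SLC11A2 higher. Over all tested probes, 22.3% passed, 12% lower and 10.3% higher, so that a share of 2 in 9 is near the background. Against NC1 alone 18.5% of all probes passed and against NC2 alone 16%. HAMP was the single member probe that passed against each control singly with the same sign, a criterion met by 11.2% of all probes. HAMP and SLC11A2 were also the member probes with INTG always above or always below both controls over the 4 experiments, as were 22.7% of all probes. Discovery (experiments 1 and 2) and validation (experiments 3 and 4) effects were compared directly for the 9 probes, and 0 passed in limma, as did 0% of all probes. At an unadjusted p under 0.05 there were 0 member probes and 9.17% of all probes. For HAMP the validation minus discovery difference was -0.04 (95% interval -0.42 to 0.34).

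**Figure D2:**
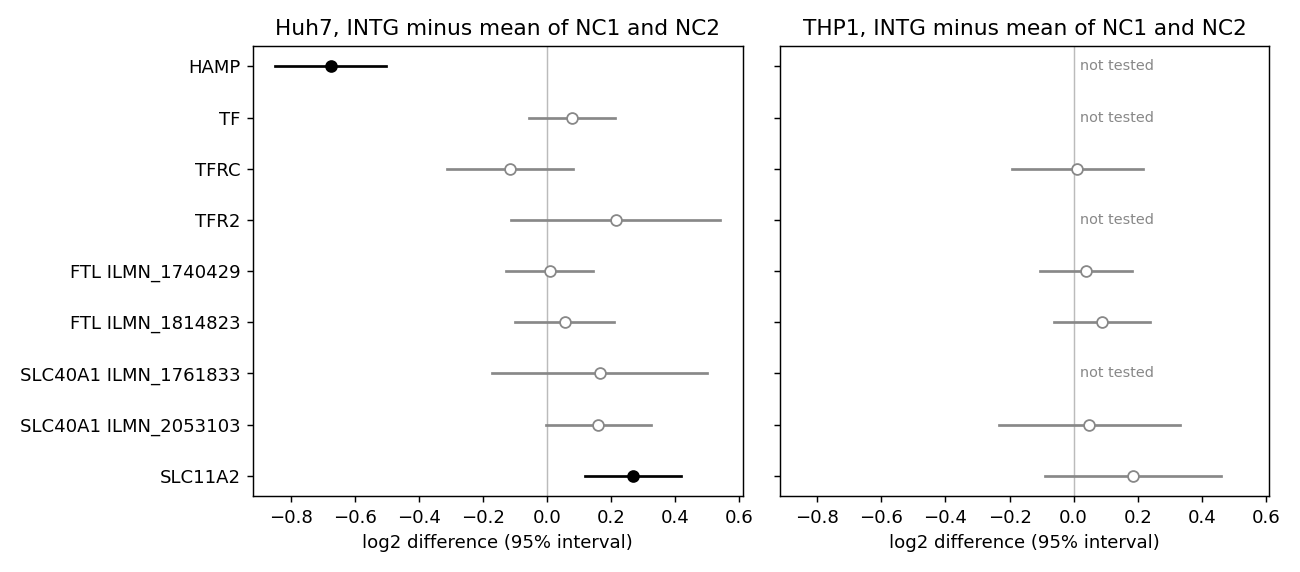
INTG minus averaged controls (log2, x axis) with 95% intervals for each tested member probe (y axis), Huh7 left and THP1 right. Filled black points passed the adjusted p threshold of 0.05, open grey ones did not. HAMP at -0.68 and SLC11A2 at 0.27 in Huh7 are the filled points.

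SLC11A2 (ILMN_1745034, NM_000617; chromosome 12, 50952263 to 51028886), the endosomal and gut transporter of ferrous iron, was higher in Huh7 under INTG. Its experiment means were 10.56, 10.40, 10.26 and 10.53 under INTG, 10.27, 9.99, 9.82 and 10.36 under NC2, and 10.43, 10.24, 9.84 and 10.42 under NC1. INTG lay above both controls in 4 of 4 experiments, while the group ranges overlapped. The fitted difference was 0.27 (95% interval 0.12 to 0.42, limma adjusted p = 0.0161), a ratio of 1.20. Against NC2 it was 0.33 (limma adjusted p = 0.0171) and against NC1 0.21 (limma adjusted p = 0.089), so that the second contrast did not pass. Like that of HAMP, the call rests on the passage as a block: the limma adjusted p was 0.521 without it and 0.253 with slide in its place. The call was also lost without experiment 1, 2 or 3 (limma adjusted p = 0.0631, 0.0589 and 0.0761), on either slide alone, and with a brightness term, which left 0.18 (limma adjusted p = 0.371).

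In THP1 the SLC11A2 probe, on 24 of 24 arrays, had experiment means of 8.69, 8.19, 8.23 and 7.94 under INTG, 8.50, 7.93, 7.71 and 8.26 under NC2 and 8.45, 7.84, 7.69 and 8.23 under NC1. INTG was above both controls in experiments 1 to 3 and below both in experiment 4, where the INTG arrays were dim. The difference was 0.19 (95% interval -0.09 to 0.46, limma adjusted p = 0.456). Without the dim arrays it was 0.35 (limma adjusted p = 0.111). The Huh7 effect exceeded the THP1 effect by 0.08 (95% interval -0.20 to 0.37, limma adjusted p = 0.754), and without the dim arrays the difference between the lines was -0.08.

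**Figure D3:**
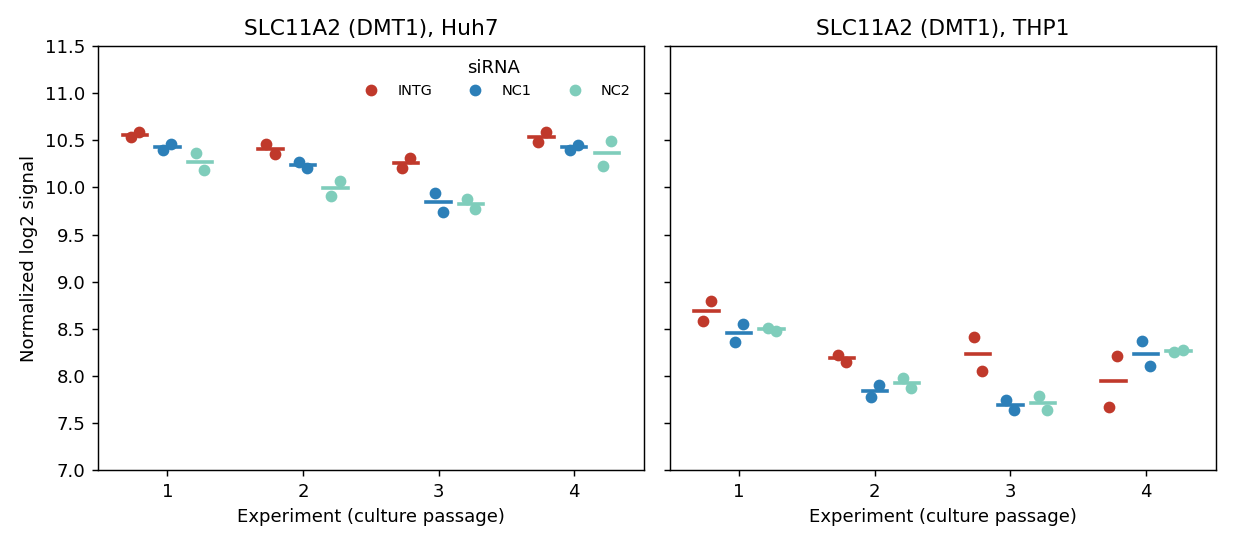
SLC11A2 signal (normalized log2, y axis) in each well by experiment (x axis), Huh7 left and THP1 right. Points are wells, bars are means of 2 wells, and INTG stands left of NC1 and NC2. INTG lies above both controls in every Huh7 experiment and in THP1 experiments 1 to 3.

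The plasma carrier TF (ILMN_1768425, NM_001063; chromosome 3, 133661998 to 133796641) was among the bright probes of Huh7 and did not pass. Experiment means were 13.96, 14.12, 14.17 and 14.65 under INTG, against 13.98, 13.94, 14.04 and 14.64 under NC2 and 13.999, 13.96, 13.995 and 14.62 under NC1. Experiment 4 was the high one for all 3 siRNAs. INTG minus controls was 0.08 (95% interval -0.06 to 0.21, limma adjusted p = 0.393). In THP1 TF was on 0 of 24 arrays.

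TFRC (ILMN_1674243, NM_003234; chromosome 3, 196049284 to 196082090), the receptor that brings transferrin into the cell, was on all arrays of both lines. In Huh7 its means under INTG were 12.49, 12.46, 12.27 and 12.49, against 12.44, 12.30, 12.63 and 12.79 under NC2 and 12.67, 12.30, 12.40 and 12.83 under NC1. INTG was above both controls in 1 experiment, below both in 2 and between them in 1. The difference was -0.12 (95% interval -0.31 to 0.08, limma adjusted p = 0.384). In THP1 the means under INTG were 10.18, 9.93, 9.41 and 9.91, with 10.35, 10.16, 9.43 and 9.62 under NC2 and 10.25, 10.05, 9.41 and 9.48 under NC1. The THP1 difference was 0.01 (limma adjusted p = 0.946), and -0.10 without the dim arrays of experiment 4.

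TFR2 (ILMN_1724738, NM_003227; chromosome 7, 100620420 to 100641552), a hepatocyte receptor homologous to TFRC, was near background in Huh7, with detection on 8 of 24 arrays, which just met the minimum for testing. Experiment means were 5.44, 5.12, 4.71 and 6.58 under INTG, 5.19, 5.04, 5.10 and 5.53 under NC2, and 5.09, 5.13, 4.96 and 5.97 under NC1. Differences within experiments went both ways, and the fitted one was 0.21 (95% interval -0.11 to 0.54, limma adjusted p = 0.331). In THP1 it was on 0 arrays.

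FTL, the light chain of ferritin (NM_000146; chromosome 19, 48965309 to 48966879), was read by 2 probes that ranked among the 66 brightest probes of every array. Probe ILMN_1740429 ran from 66.0% to 98.3% of the brightest probe on the array and ILMN_1814823 from 48.03% to 88.8%, so room for a rise on the scale was limited. Whether that narrowed the differences was not tested. FTL has processed pseudogenes, and how far these probes read them is not given in the sources used here. In Huh7 the first probe had means of 14.90, 14.93, 14.78 and 14.68 under INTG, against 14.86, 14.96, 14.73 and 14.73 under NC2 and 14.99, 14.86, 14.65 and 14.75 under NC1. The difference was 0.01 (95% interval -0.13 to 0.15, limma adjusted p = 0.942). The second probe had Huh7 means of 14.55, 14.62, 14.85 and 14.63 under INTG, against 14.63, 14.55, 14.65 and 14.64 under NC2 and 14.64, 14.53, 14.53 and 14.69 under NC1. INTG was above both controls in experiments 2 and 3 and below both in the others, and the difference was 0.06 (limma adjusted p = 0.605). In THP1 the differences of these probes were 0.04 (limma adjusted p = 0.732) and 0.09 (limma adjusted p = 0.488). Over both probes and lines the highest upper bound of these 95% intervals was 0.24. The iron-responsive element printed above acts on translation, which arrays do not read.

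SLC40A1, the ferroportin gene (NM_014585; chromosome 2, 189560590 to 189580786), had a bright probe and a dim one in Huh7. ILMN_2053103 was on 24 of 24 Huh7 arrays, with means of 10.28, 10.34, 9.81 and 10.02 under INTG, 10.12, 9.85, 9.72 and 9.84 under NC2 and 10.26, 9.95, 9.85 and 10.06 under NC1. INTG exceeded NC2 in 4 of 4 experiments and NC1 in 2 of them. The difference was 0.16 (95% interval -0.0042 to 0.32, limma adjusted p = 0.15), with experiment 2 at 0.44 and the others at 0.10 or less. With each well as an array of its own it passed (limma adjusted p = 0.0442). The dim probe, ILMN_1761833, on 10 of 24 arrays, had means of 5.49, 5.38, 5.14 and 6.09 under INTG, 5.47, 4.797, 5.03 and 5.48 under NC2 and 5.29, 5.32, 5.91 and 5.59 under NC1. It differed by 0.16 too (95% interval -0.17 to 0.50, limma adjusted p = 0.472). In THP1 the bright probe was on 14 of 24 arrays, with means of 6.43, 6.16, 6.11 and 4.67 under INTG, 6.10, 6.12, 6.03 and 5.31 under NC2 and 5.99, 5.97, 5.89 and 4.93 under NC1. Its difference there was 0.05 (limma adjusted p = 0.839), and 0.22 without the dim arrays (limma adjusted p = 0.323).

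HFE (chromosome 6, 26087429 to 26098343), whose loss causes hereditary haemochromatosis, had 3 probes. These were detected on 0, 0 and 1 of 24 Huh7 arrays and on 0 THP1 arrays, so no HFE difference was tested.

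In THP1, 5 member probes (TFRC, both of FTL, 1 of SLC40A1 and SLC11A2) could be tested, and 0 passed in limma for INTG minus controls, with 0.0444% of all THP1 probes. At an unadjusted p under 0.05 there were 0 member probes and 11.9% of all probes. Against both controls singly 0.00739% of all probes passed, with 0 member probes. For 8.84% of probes INTG was always above or always below both controls over the 4 experiments, with 0 member probes among them. NC2 minus NC1 called 0 members and 0% of all probes in limma, with 0 members and 1.75% of all probes at an unadjusted p under 0.05. Validation against discovery likewise called 0 members and 0% of all probes, with 0 members and 8.41% of all probes unadjusted. Tested directly, Huh7 and THP1 effects differed for 0 of 5 member probes in limma, against 2.6% of all probes. At an unadjusted p under 0.05 there were 0 member probes and 18.1% of all probes. HAMP, on which the lines cannot be compared for want of signal in THP1, was outside that test.

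Under the control siRNAs the lines differed widely in these genes. Levels are means of 4 experiments ± SD. TF was 14.15 ± 0.33 in Huh7 and not well above background in THP1 (0 of 16 control arrays). Against the dimmest detected signal it was at least 360-fold higher in Huh7. HAMP was 9.49 ± 0.69 in Huh7, again with 0 of 16 control arrays in THP1, and at least 14.3-fold higher by the same bound. The bright SLC40A1 probe was 9.95 ± 0.17 in Huh7 and 5.79 ± 0.45 in THP1, where 9 of 16 control arrays detected it (difference 4.16, limma adjusted p = 1.75e-07). TFRC was 12.54 ± 0.21 in Huh7 and 9.84 ± 0.43 in THP1, 6.50-fold higher (limma adjusted p = 3.56e-06).

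SLC11A2 was 10.17 ± 0.26 in Huh7 and 8.08 ± 0.35 in THP1, 4.27-fold higher (limma adjusted p = 1.32e-05). FTL did not pass in either probe. ILMN_1740429 was at 14.81 ± 0.12 in Huh7 and 14.73 ± 0.10 in THP1 (difference 0.08, 95% interval -0.18 to 0.34). ILMN_1814823 was at 14.61 ± 0.06 and 14.49 ± 0.17, in the same order (difference 0.12, 95% interval -0.15 to 0.40). Both FTL probes ranked among the 66 brightest of every array. Arrays of both lines were quantile normalized together, so these values follow rank, and equal amounts in the lines cannot be read from them. TFR2 and the dim SLC40A1 probe passed (limma adjusted p = 0.0117 and 0.00154), but were too close to background for a fold. In all, 7 of 9 member probes passed, as did 62.6% of all probes. A probe entered this comparison if it met the detection minimum in either line. HAMP, TF, TFR2 and the dim SLC40A1 probe met it through Huh7 alone, with detection on 0 THP1 arrays. Their tests set Huh7 signal against background values in THP1, so these passes partly follow from the filter. They add no support beyond the detection counts, and no p-value is given for HAMP and TF. On the authors' processed values 6 member probes and 29.4% of all probes passed, and TFR2 did not (limma adjusted p = 0.0674). Line and slide cannot be told apart here.

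**Figure D4:**
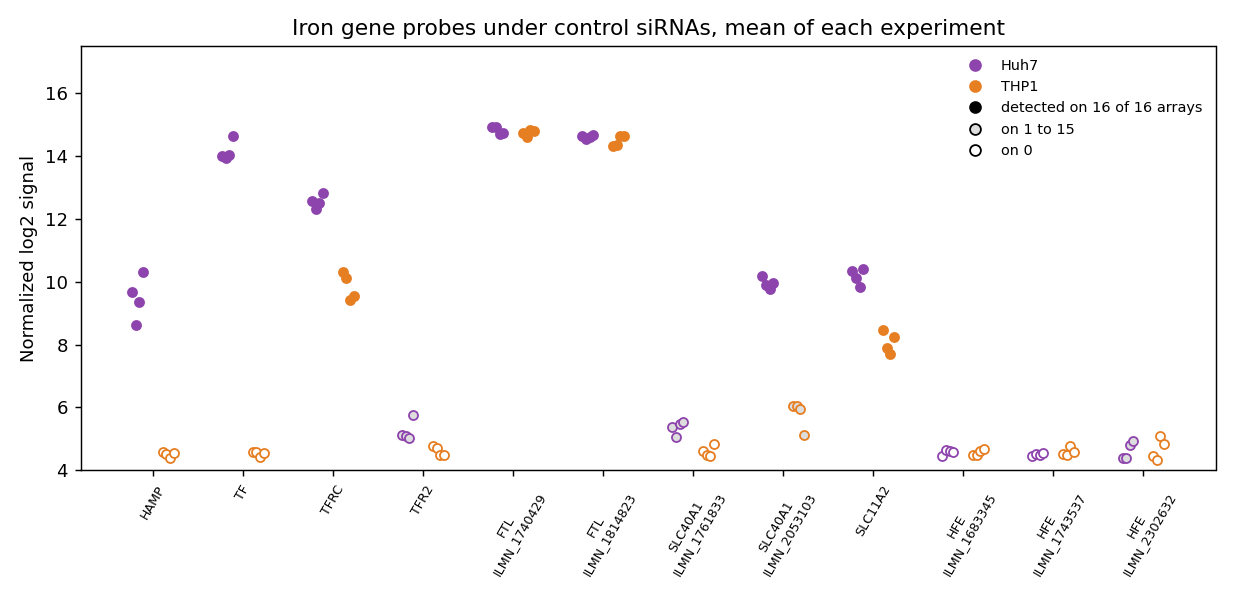
Normalized log2 signal (y axis) of the 12 member probes (x axis) under control siRNAs, Huh7 left of THP1 for each probe. Points are experiment means over NC1 and NC2, and the fill gives detection over 16 control arrays. TF and HAMP are high in Huh7 and open, on 0 arrays, in THP1, while the FTL points of both lines lie together. FTL ranks near the top of every array, which leaves little room for a difference after quantile normalization.

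Genes that act on hepcidin and on iron were read in 7 lists, by the probe with the smallest p per gene. In Huh7, 26 of 84 tested genes passed (31%), 6 higher and 20 lower under INTG, where 26.1% of all genes passed by the same rule, 13.9% lower and 12.2% higher. The median log2 difference was -0.06 over the lists and 0.01 over all genes. Values below are log2 differences of INTG minus controls in Huh7, adjusted with limma over all probes. Contrasts against each control singly are not given for list genes. The controls differed more for some probes than for others. NC2 minus NC1 was 0.27 for ID3, -0.30 for PIAS3 and -0.43 for ISCA1 probe ILMN_2219556, but -0.05 for CEBPA and 0.05 for SLC48A1. None of these control differences passed. Genes given as not passing were chosen after their values were seen. The lists were chosen with earlier results of these data known, and no list was tested as a set.

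The BMP and SMAD list changed in both directions, with 3 genes higher and 3 lower of 15 tested (40%, against 26.1% of all genes). ID3, a transcription inhibitor and BMP target, rose by 0.49 (SE 0.06, adjusted p = 0.000199), between 0.44 and 0.55 in each experiment. The BMP type I receptor ACVR1 rose by 0.46 (adjusted p = 0.00148). TMPRSS6, the protease that restrains hepcidin by cutting hemojuvelin, fell by 0.39 (adjusted p = 0.0129), and FURIN, a proprotein convertase that processes hepcidin, by 0.25 (adjusted p = 0.0399). The other called genes, named after their values were seen, were SMAD6 (0.25), an inhibitory SMAD, and the hemojuvelin-binding receptor NEO1 (-0.25). Among alternative settings, ID3 was called in 14 of 16, ACVR1 in 13 of 16 and TMPRSS6 in 8 of 15. FURIN and SMAD6 were each called in 5 of 16, and NEO1 in 3 of 15. TMPRSS6 and NEO1 were detected on 6 of 8 INTG arrays. ID1 at 0.14, SMAD7 at 0.06 and hemojuvelin (HJV) at 0.24 did not pass. The other tested probe of ID1 was at -0.12 and that of HJV at 0.13.

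In the interleukin 6 and STAT3 list 4 of 10 genes fell and 0 rose, with a median of -0.19. Of all genes 26.1% passed, 13.9% lower, against 40% of this list. CEBPA, a liver transcription factor that acts on the HAMP promoter, fell by 0.62 (SE 0.07, adjusted p = 0.000193) and lay between -0.82 and -0.46 in each experiment. The kinase JAK1 fell by 0.52 (adjusted p = 0.00246). STAT3 fell by 0.35 (adjusted p = 0.00471) on the probe taken; of its other probes 1 passed at -0.32 and 1 did not at -0.25. PIAS3, an inhibitor of STAT3, fell by 0.41 (adjusted p = 0.0165). The receptor chains IL6R at -0.18 and IL6ST at 0.17 did not pass. The other tested probe of IL6R was at 0.11 and that of IL6ST at 0.10.

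Of 18 genes for uptake, export and reduction, 8 fell and 0 rose, with a median of -0.22. That is 44.4% of the list, where 26.1% of all genes passed, 13.9% lower. The haem transporter SLC48A1 fell by 0.76 (SE 0.09, adjusted p = 0.000173). HPX, which carries haem in plasma, fell by 0.49 (adjusted p = 0.000712) and the transporter FLVCR2 by 0.49 (adjusted p = 0.000777). Haptoglobin (HP), which carries haemoglobin, fell by 0.58 (adjusted p = 0.00112), on a probe whose share of signal from the close paralog HPR is not known. Named after their values were seen, SLC39A14 (-0.38), BLVRB (-0.45), STEAP2 (-0.45) and SLC25A37 (-0.24) made up the rest. The STEAP2 call held in 8 of 15 alternatives and the SLC25A37 call in 8 of 16. HMOX1, the haem-degrading enzyme, at 0.07 did not pass.

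Of the 6 storage and chaperone genes 0 passed in limma, among them NCOA4, the receptor for ferritin breakdown, at 0.06. In the iron regulatory protein list 33.3% passed, with 26.1% of all genes. Among 9 genes of the iron regulatory protein list, CIAO1, of the cytosolic iron-sulfur machinery, fell by 0.41 (adjusted p = 0.0028), while HIF1A rose by 0.32 (adjusted p = 0.0284) and FBXL5, which targets IREB2 for degradation, was called at 0.43 (adjusted p = 0.0401). The FBXL5 probe was detected on 7 of 8 INTG arrays, 2 of 8 NC2 arrays and 3 of 8 NC1 arrays. It met the detection minimum through the INTG arrays and was called in 6 of 15 alternatives, so it is given as a value near background. The other HIF1A probes (0.13 and 0.25) and the other FBXL5 probe (0.22) did not pass. The HIF1A call held in 7 of 16 alternatives. ACO1, itself an iron regulatory protein, was at -0.07 and did not pass.

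In the iron-sulfur list 3 of 17 genes fell and 1 rose (23.5%, against 26.1% of all genes). ISCA1, a mitochondrial assembly factor, fell by 0.93 (SE 0.07, adjusted p = 1.27e-05) and by 0.66 on its other probe (adjusted p = 0.00233). MMS19 fell by 0.65 (adjusted p = 0.000134) and BOLA3 by 0.21 (adjusted p = 0.0445), and NUBPL rose by 0.27 (adjusted p = 0.0259). The other BOLA3 probe, at -0.21, did not pass (adjusted p = 0.0719), and the BOLA3 call held in 5 of 16 alternatives. The NUBPL call held in 7 of 16. Of 9 haem synthesis genes UROS fell by 0.37 (adjusted p = 0.00306) and 0 rose (11.1%, against 26.1% of all genes). In THP1, 1 of 76 tested genes passed, with 0.055% of all genes. This was ISCA1, which fell by 0.57 (adjusted p = 0.0416), while its other THP1 probe at -0.17 did not pass.

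**Figure D5:**
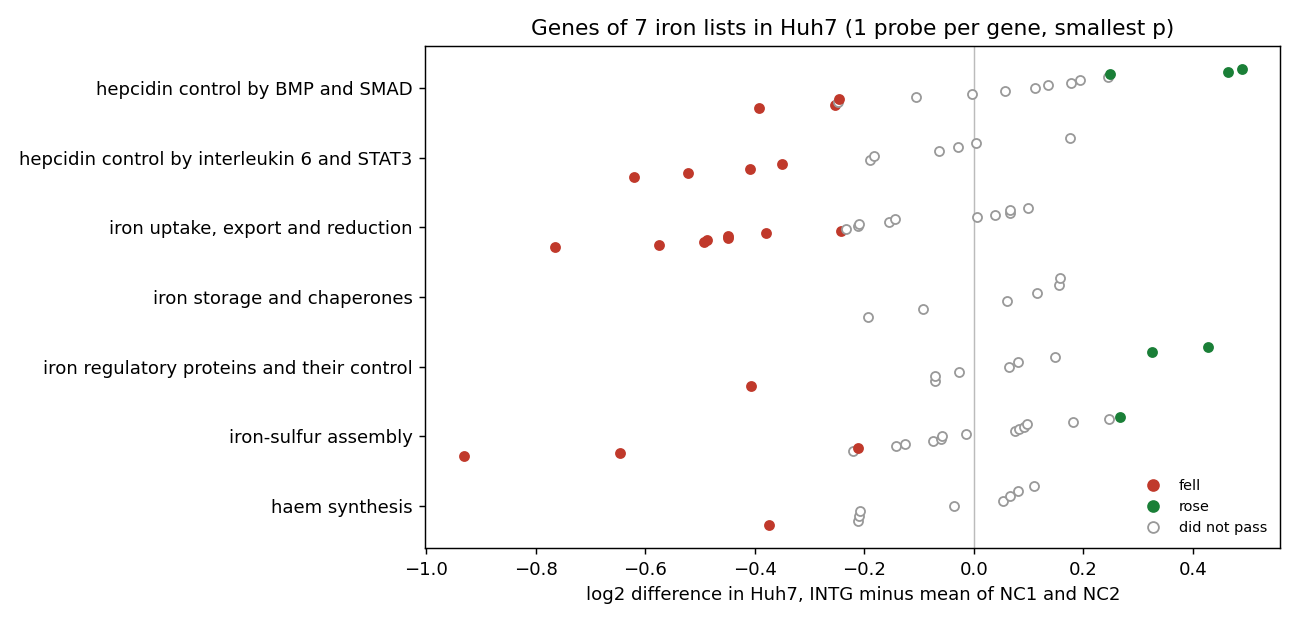
Log2 difference in Huh7, INTG minus averaged controls (x axis), for each tested gene of 7 lists (y axis). Red points fell and green points rose at an adjusted p under 0.05, and open points did not pass. The interleukin 6 and STAT3 list, the uptake list, the storage list and the haem synthesis list hold no green points. The haem synthesis list has 1 red point and the storage list 0.

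The signals most like HAMP over the 12 siRNA by experiment means of Huh7, out of 11916 probes searched, were TEX2 (r = 0.93), ACLY (0.92), BCL6 (0.92), ACACA (0.92) and ACAD11 (0.91). Their INTG minus controls differences in Huh7 were -0.15, -0.34, -0.54, -0.10 and -0.24, in the same order. ACLY and BCL6 passed in limma, and TEX2, ACACA and ACAD11 did not. The 12 means share passages and arrays, and the likeness was not tested. Among the members, TFRC had r = 0.70 with HAMP, TF 0.58, TFR2 0.53 and SLC11A2 0.11 over the same 12 means. The SLC40A1 probes had r = 0.37 (ILMN_1761833) and -0.20 (ILMN_2053103), and those of FTL 0.05 (ILMN_1814823) and -0.46 (ILMN_1740429).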

How the data were processed

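Scanner tables, per the file headers, give mean bead intensity by probe and a detection p-value. The authors' processed intensity was also deposited; how it was made is not given in these sources. According to the submitters' processing notes, lumi and limma were used. Intensities of 48 arrays were background corrected from the detection p-values (normexp, offset 16), quantile normalized and log2 transformed (neqc, limma 3.58.1, R 4.3.3). Of 48803 probes, 8 with blank values were left out. Testing in a line required a detection p-value under 0.01 on 8 or more of 24 arrays. Wells were averaged (n = 4 experiments per group), and the model of each line held siRNA and experiment, leaving 6 residual degrees of freedom. P-values were Benjamini-Hochberg adjusted over all tested probes at 0.05. The experiment is the block since the series' design text ties it to a culture passage. Deviations of same-numbered samples correlated at 0.458 to 0.918. Same-numbered samples of a line also share a slide, so this correlation cannot tell passage from slide. An "at least" fold sets the bright mean against the dimmest detected signal. The members and lists were chosen with earlier results of these data known. Named genes are all member probes, at most 4 genes per list and line (called ones with the smallest p first), and the 5 probes most like HAMP. List genes named beyond this were chosen after their values were seen. The fit of each line was tested on simulated data. Alternatives covered block, wells, background, normalization, filter, weights, brightness, slides, dim arrays and left-out experiments. Promoter and FTL sequences are from RefSeq on GRCh38.p14, and the siRNA target is from the labels. The number of arrays limits the precision.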

Additional observations from a re-analysis of the deposited data

Results flagged for a closer look

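Of 57 sets of 4 experiments, 8 held an experiment far from the rest, relative to the range of the set. In independent sets chance alone gives about 1 such set in 20. These sets share passages, and the differences come from the same means, so no excess can be read from the count. TF in Huh7 was high in experiment 4 under NC2 (14.64) and under NC1 (14.62). TFRC in Huh7 was low in experiment 3 under INTG (12.27). For FTL, ILMN_1814823 was low in Huh7 experiment 2 under NC2 (14.55) and ILMN_1740429 low in THP1 experiment 2 under NC2 (14.57). The bright SLC40A1 probe had an INTG minus controls difference in Huh7 experiment 2 (0.44) above the others, and was low in THP1 experiment 4 under NC2 (5.31) and under NC1 (4.93). None of these sets belongs to HAMP or SLC11A2.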

How the results depend on the processing

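HAMP passed in Huh7 in 14 of 16 alternatives (-0.73 to -0.60) and SLC11A2 in 8 of 16 (0.18 to 0.31). With no replicate block, 0 member probes passed in Huh7 (2 in the reported fit), 0 against each control singly (1 as reported), and 3 list genes (26 as reported). With slide as sole block these counts were 0, 0 and 11. With a brightness term they were 1, 0 and 8, on the discovery slide alone 1, 0 and 15, and on the validation slide alone 1, 0 and 9. With wells as separate arrays 2 passed singly and 40 list genes passed, and without background correction 2 passed singly. Leaving out 1 experiment gave 1 to 2 member probes and 17 to 20 list genes. HAMP passed between NC2 and NC1 (1 as against 0) with separate wells, no background correction, detection on all 24 arrays and array weights. With array weights 1 THP1 member probe (SLC11A2) passed. Without a detection filter 1 member probe differed between lines, HAMP, which no THP1 array detected. Leaving out 1 experiment gave 0 to 3 THP1 member probes that differed between phases: TFRC, SLC40A1 and SLC11A2 passed without experiment 3, when validation rests on experiment 4 with its dim INTG arrays. In THP1, where 1 list gene passed, the count was 0 with no replicate block, with slide as block, with detection on all 24 arrays or on the validation slide, 3 with separate wells or array weights, 4 on the discovery slide and 0 to 1 with an experiment left out. The causes of these changes were not tested, and fits on single slides also held fewer samples.

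Signs turned in 39 cases, with 0 past the threshold in either fit. In Huh7, TFRC was 0.0516 on the discovery slide. FTL ILMN_1740429 was -0.0042 with weights, -0.0254 with brightness, -0.0029 on the discovery slide and -0.0211 to 0.0299 with an experiment left out. FTL ILMN_1814823 was -0.0200 with brightness, -0.0012 on the discovery slide and -0.0139 to 0.102 with an experiment left out. In THP1, TFRC was -0.128 with weights, -0.0894 with brightness, -0.150 on the discovery slide, -0.104 without the dim arrays and -0.104 to 0.0751 with an experiment left out. FTL ILMN_1740429 was -0.0120, -0.0028, -0.0185, -0.0039 and -0.0039 to 0.0701 in those settings. The SLC40A1 probe was -0.150 on the validation slide and -0.0626 to 0.215 with an experiment left out. The Huh7 minus THP1 effect of TFRC was 0.0030 with weights, 0.202 on the discovery slides and -0.284 to 0.0555 with an experiment left out. That of FTL ILMN_1740429 was 0.0095, 0.0156 and -0.0657 to 0.0338 there, and 0.0119 without the dim arrays. That of FTL ILMN_1814823 was 0.0092 under normalization within lines and -0.101 to 0.0304 with an experiment left out. That of SLC40A1 was -0.132 with weights, -0.0552 without the dim arrays and -0.0266 to 0.244 with an experiment left out. That of SLC11A2 was -0.0365 with weights, -0.0113 on the discovery slides, -0.0818 without the dim arrays and -0.0395 to 0.142 with an experiment left out. Between lines, FTL was -0.0917 and -0.0021 on the validation slides. In the line comparison 9924 of 15860 probes passed as reported, 10127 with normalization within lines and 4666 on the authors' values, with 7 and 6 member probes. That comparison holds no block term, and separate wells and a brightness term were not run on it. Signal near background limits TFR2, HFE and the dim SLC40A1 probe.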
